A study of Mus musculus with 18 samples.

Results

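The genes described here are 8 genes of B cells and germinal centres, Ms4a1, Cd79a, Cd79b, Cd22, Pax5, Cr2, Fcer2a and Bcl6, measured in the colon of mice. They were chosen by their symbols, and all 8 were found among the 47729 genes of the count table. RNA-Seq was performed on the colon of 9 mice in 3 groups of 3: naive WT mice labelled as controls, WT mice given AOM-DSS, and Claudin-2TG mice given AOM-DSS. The AOM-DSS groups are called WT CAC and Cldn2TG CAC, where CAC is colitis-associated cancer. Azoxymethane (AOM), a colon carcinogen, was given as 1 dose of 10 mg/kg, and dextran sulfate sodium (DSS), which injures the colonic epithelium, was given at 2.5% in 3 cycles. The same treatment text is attached to the control samples, so the naive group rests on its treatment label. All mice were on a C57BL/6 background, and the study used littermate controls. The transgene expresses the tight junction protein claudin-2 from the villin promoter, that is, in the intestinal epithelium. Ages, and how much of each colon was tumour, were not given in the sources used here. There was no naive Cldn2TG group, so an effect of the transgene alone cannot be told apart from its effect under AOM-DSS.

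B cells carry an antigen receptor made of a membrane immunoglobulin and the signalling pair CD79A and CD79B. In the gut they sit mainly in lymphoid follicles and patches of the wall, which contain follicular dendritic cells and the chemokine CXCL13 that draws B cells in through the receptor CXCR5. Activated B cells can enter germinal centres, where antibody genes are altered and the transcriptional repressor BCL6 is required, or become plasma cells, which lose most B cell surface proteins and secrete antibody, in the gut mainly IgA. Of the genes described here, Ms4a1 encodes CD20, a B cell surface protein. Cd22 encodes an inhibitory coreceptor that binds sialic acid. Pax5 encodes the transcription factor that keeps B cell identity, and it is switched off in plasma cells. Cr2 encodes complement receptors CD21 and CD35, carried by B cells and follicular dendritic cells. Fcer2a encodes CD23, a low-affinity IgE receptor of follicular B cells. BCL6 is also made outside the B cell lineage.

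On the GRCm38 build the genes lie at chr19:11249675-11266241 for Ms4a1, chr7:24897381-24902197 for Cd79a, chr11:106311341-106314762 for Cd79b, chr7:30865402-30880342 for Cd22, chr4:44524757-44710487 for Pax5, chr1:195136811-195176716 for Cr2, chr8:3681737-3694175 for Fcer2a and chr16:23965052-23988852 for Bcl6. Cd79a is on the plus strand and the other 7 are on the minus strand. Promoter sequences of RefSeq on GRCm38.p6 matched 6 of the 8 genes, and Ms4a1 and Cd79b had no entry. The sequences before the start of Cd79a, the 1 gene called between the AOM-DSS groups, and before the start of Cr2 are shown, with that of Bcl6, whose level did not follow the other genes. Each is read 5′ to 3′ on the strand of its gene.
Cd79a, chr7:24897247-24897380, plus strand: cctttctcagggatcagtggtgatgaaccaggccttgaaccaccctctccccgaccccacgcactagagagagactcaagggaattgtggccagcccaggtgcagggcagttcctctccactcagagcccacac
Cr2, chr1:195176720-195176969, minus strand: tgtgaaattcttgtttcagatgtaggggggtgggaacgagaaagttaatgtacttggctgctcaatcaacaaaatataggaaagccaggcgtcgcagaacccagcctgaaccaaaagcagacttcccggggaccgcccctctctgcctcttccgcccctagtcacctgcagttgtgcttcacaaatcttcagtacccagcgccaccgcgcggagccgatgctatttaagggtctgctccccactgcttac
Bcl6, chr16:23988853-23989102, minus strand: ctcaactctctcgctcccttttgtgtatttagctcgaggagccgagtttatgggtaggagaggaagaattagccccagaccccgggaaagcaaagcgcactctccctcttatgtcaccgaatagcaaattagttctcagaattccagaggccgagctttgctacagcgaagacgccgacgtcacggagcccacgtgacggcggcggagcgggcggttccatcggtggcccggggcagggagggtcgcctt

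The 4 motifs of B cell transcription factors searched on both strands in the 250 bases before each start were the octamer ATTTGCAT, the EBF1 motif TCCCNNGGGA, the ETS and SPI1 motif GAGGAAGT and the E box CAGCTG. Of 32851 promoter windows of all genes, 1.60% held the octamer, 0.779% the EBF1 motif, 2.44% the ETS and SPI1 motif and 13.0% the E box. The 3 sequences shown held none of the 4. An EBF1 match lay 49 bases before the RefSeq start of Cd22, inside an exon of Cd22 in the annotation of the count table. It is shown in capitals within the stretch chr7:30879058-30879087 on the minus strand.
Cd22 site: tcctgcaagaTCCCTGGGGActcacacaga
One E box lay 30 bases before the second start of Fcer2a. These matches describe the letters of the windows only.

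Each mouse had 14142711 to 22262546 counts on genes, summed over 2 lanes that differed by no more than counting noise. Levels are CPM, counts for each 1000000 counted, with TMM scaling over the 9 mice, and 3 counts correspond to 0.135 to 0.212 CPM. Cldn2 itself stood at 191 to 259 CPM in naive WT, 119 to 137 CPM in WT CAC and 208 to 251 CPM in Cldn2TG CAC mice, so both AOM-DSS groups were apart and the Cldn2TG CAC range lay inside that of naive WT. Epithelial and smooth muscle genes were present in every mouse, as a colon should hold. Naive WT mouse 1 stood apart: it was the 1 mouse of 9 with Xist, at 214 CPM against at most 0.203 CPM in the other 8, and it had the highest sum of smooth muscle genes. The methods of the study state that mice were matched for sex, and the Xist level of this mouse goes against that within the naive group. Its B cell genes also stood apart. Calls in WT CAC against naive WT mice are therefore given with and without it, for the 8 genes and for the lists that had calls. Correlations use all 9 mice. A gene is called where the adjusted p of edgeR's quasi-likelihood test, corrected by Benjamini-Hochberg over all genes tested, is under 0.05. The p-values measure the spread between these mice, and the exact permutation test of 3 mice against 3 cannot go below 0.1.

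The 7 genes other than Bcl6 had one pattern over the mice: high in all 3 WT CAC mice, low in naive WT mice 2 and 3, and between or low in Cldn2TG CAC mice, except for Fcer2a in Cldn2TG CAC mouse 8, which lay inside the WT CAC range. Naive WT mouse 1 lay within the range of the WT CAC mice, or, for Cd22, just below it. The means of these 7 genes were 2.20 to 4.02 times as high in WT CAC as in naive WT mice, but none passed the test. In Cldn2TG CAC mice the means were 0.215 to 0.353 of those in WT CAC mice, and Cd79a passed the test. Bcl6 had means of 10.5, 10.8 and 9.49 CPM in naive WT, WT CAC and Cldn2TG CAC mice. In bulk colon, fewer B cells and less RNA per B cell cannot be told apart.

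**Figure D1:**
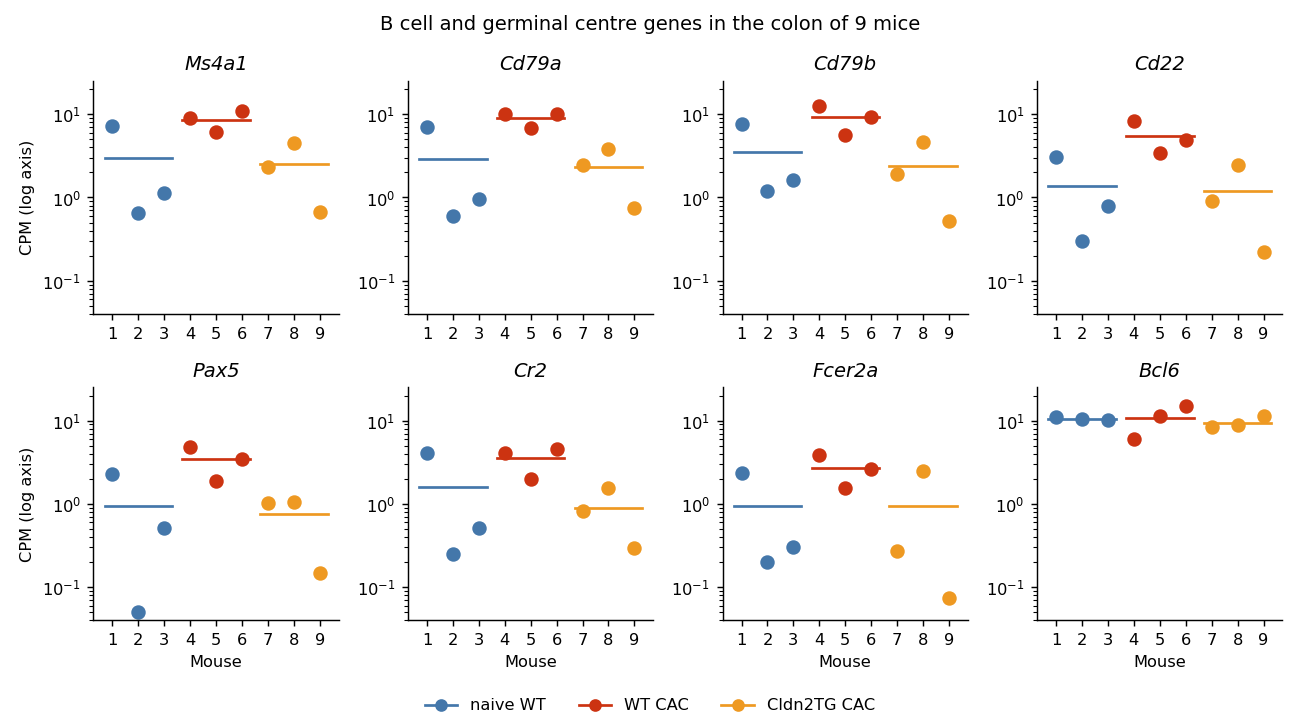
Level of each gene in each of the 9 mice, in CPM on a log axis, with points for mice and lines for group means. Naive WT mouse 1 lies within or just below the WT CAC range for 7 genes, and Bcl6 stays between 6.10 and 14.9 CPM in all mice.

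Cd79a and Cd79b, the signalling chains of the B cell receptor, had the highest mean levels per length over the 9 mice. In single mice this did not always hold: the lowest naive WT levels were 1.52 CPM per kb for Bcl6, 0.842 for Cd79b and 0.414 for Cd79a. Cd79a stood at 7.07, 0.603 and 0.955 CPM in naive WT mice 1 to 3, at 10.1, 6.90 and 10.1 CPM in WT CAC mice 4 to 6 and at 2.48, 3.80 and 0.739 CPM in Cldn2TG CAC mice 7 to 9. Every Cldn2TG CAC mouse was below every WT CAC mouse, while naive WT mouse 1 was above the lowest WT CAC mouse. Between WT CAC and naive WT mice the log2 fold change was 1.68 ± 0.83 (SE, n = 3 mice a group; adjusted p = 0.212 by edgeR). Between Cldn2TG CAC and WT CAC mice it was -1.94 ± 0.48 (adjusted p = 0.0407 by edgeR), so Cd79a fell. The log2 fold change stayed between -2.48 and -1.53 when each mouse was left out in turn, but the call did not hold: adjusted p was between 0.0425 and 0.140 in these fits, and was under 0.05 only when WT CAC mouse 4 was the one left out.

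Cd79b stood at 7.71, 1.21 and 1.61 CPM in naive WT mice, at 12.7, 5.62 and 9.31 CPM in WT CAC mice and at 1.93, 4.66 and 0.517 CPM in Cldn2TG CAC mice. The AOM-DSS groups did not overlap, and naive WT mouse 1 was again inside the WT CAC range. Its log2 fold change was 1.42 ± 0.71 in WT CAC against naive WT (adjusted p = 0.213 by edgeR) and -1.94 ± 0.65 in Cldn2TG CAC against WT CAC (adjusted p = 0.118 by edgeR). Both chains kept the same order of groups, and the second difference of Cd79b had nearly the size of that of Cd79a with a larger error.

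Ms4a1, the gene of CD20, stood at 7.17, 0.653 and 1.13 CPM in naive WT mice, at 8.99, 6.10 and 10.8 CPM in WT CAC mice and at 2.34, 4.56 and 0.665 CPM in Cldn2TG CAC mice. The lowest WT CAC mouse was above the highest Cldn2TG CAC mouse. Its log2 fold change was 1.56 ± 0.81 in WT CAC against naive WT (adjusted p = 0.232 by edgeR) and -1.76 ± 0.56 in Cldn2TG CAC against WT CAC (adjusted p = 0.0951 by edgeR).

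Cd22, the inhibitory coreceptor, was the 1 gene of the 8 whose 3 WT CAC mice all stood above all 3 naive WT mice. Its levels were 3.04, 0.301 and 0.782 CPM in naive WT mice, 8.18, 3.41 and 4.96 CPM in WT CAC mice and 0.896, 2.43 and 0.222 CPM in Cldn2TG CAC mice, where mouse 9 had 3 counts. The log2 fold change was 2.03 ± 0.74 in WT CAC against naive WT (adjusted p = 0.106 by edgeR) and -2.18 ± 0.67 in Cldn2TG CAC against WT CAC (adjusted p = 0.0888 by edgeR). Without Cldn2TG CAC mouse 8 the second was -3.28 (adjusted p = 0.063 by edgeR). The gap between its lowest WT CAC mouse and naive WT mouse 1 was narrow.

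Pax5, the factor of B cell identity, was the lowest of the genes per length, at a mean of 0.193 CPM per kb of exon over the 9 mice. It stood at 2.29, 0.0502 and 0.521 CPM in naive WT mice, at 4.88, 1.90 and 3.48 CPM in WT CAC mice and at 1.03, 1.06 and 0.148 CPM in Cldn2TG CAC mice. The value of naive WT mouse 2 was 1 count and that of mouse 9 was 2 counts, so the lowest levels are at the limit of this depth. The log2 fold change was 1.87 ± 0.91 in WT CAC against naive WT (adjusted p = 0.202 by edgeR) and -2.17 ± 0.59 in Cldn2TG CAC against WT CAC (adjusted p = 0.0565 by edgeR).

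Cr2, the complement receptor gene of B cells and follicular dendritic cells, stood at 4.08, 0.251 and 0.521 CPM in naive WT mice, at 4.11, 1.99 and 4.55 CPM in WT CAC mice and at 0.827, 1.57 and 0.295 CPM in Cldn2TG CAC mice. Naive WT mouse 1 almost reached WT CAC mouse 4, and the AOM-DSS groups did not overlap. Its log2 fold change was 1.16 ± 0.91 in WT CAC against naive WT (adjusted p = 0.419 by edgeR) and -1.94 ± 0.55 in Cldn2TG CAC against WT CAC (adjusted p = 0.0606 by edgeR).

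Fcer2a, the gene of CD23, was the 1 lineage gene of the 7 whose AOM-DSS groups overlapped. It stood at 2.34, 0.201 and 0.304 CPM in naive WT mice, at 3.86, 1.55 and 2.61 CPM in WT CAC mice and at 0.276, 2.48 and 0.0739 CPM in Cldn2TG CAC mice, where mouse 9 had 1 count. Cldn2TG CAC mouse 8 lay inside the WT CAC range, and mice 7 and 9 lay far below it. The log2 fold change was 1.52 ± 0.84 in WT CAC against naive WT (adjusted p = 0.254 by edgeR) and -1.43 ± 0.91 in Cldn2TG CAC against WT CAC (adjusted p = 0.427 by edgeR). Without Cldn2TG CAC mouse 8 the second was -3.87 (adjusted p = 0.0567 by edgeR), and without mouse 9 it was -0.93.

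Bcl6, the repressor that germinal centre B cells need, stood at 11.0, 10.3 and 10.2 CPM in naive WT mice, at 6.10, 11.3 and 14.9 CPM in WT CAC mice and at 8.47, 8.77 and 11.2 CPM in Cldn2TG CAC mice. The groups overlapped throughout, and WT CAC mouse 4, which had the highest sum of the other 7 genes, had the lowest Bcl6. Its log2 fold change was 0.05 ± 0.30 in WT CAC against naive WT (adjusted p = 0.922 by edgeR) and -0.20 ± 0.31 in Cldn2TG CAC against WT CAC (adjusted p = 0.787 by edgeR). The sign of both differences turned when WT CAC mouse 6 was left out.

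Per kb of exon, the mean levels over the 9 mice ran from 3.51 CPM per kb for Cd79b and 3.26 for Cd79a through 1.53 for Bcl6, 0.761 for Ms4a1, 0.539 for Cd22 and 0.492 for Fcer2a to 0.252 for Cr2 and 0.193 for Pax5. Cd79b and Cd79a, Ms4a1 and Cd22, Cd22 and Fcer2a, and Cr2 and Pax5 differed by less than the SD over the mice of either gene. The means of the other neighbours differed by more than the SD of at least 1 of the genes: Bcl6, with an SD of 0.36 CPM per kb, stood 1.73 below Cd79a and 0.77 above Ms4a1, and Fcer2a stood 0.24 above Cr2. In naive WT mouse 2 and Cldn2TG CAC mouse 9, where the lineage genes were lowest, Bcl6 had 206 and 152 counts and the largest count of the other 7 genes was 24 and 10. In these mice most of the counts of the 8 genes were therefore of Bcl6.

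WT CAC and naive WT mice were compared for the effect of AOM-DSS in WT colon. None of the 8 genes was called by edgeR, 1 had an unadjusted p under 0.05 and DESeq2 called 1, which was Cd22 (adjusted p = 0.0206 by DESeq2). Over all 15437 genes tested, edgeR called 8.04% higher and DESeq2 11.3% higher, and 32.6% had an unadjusted p under 0.05 in either direction. The median log2 fold change of the 8 genes was 1.54, beside 0.02 over all genes tested. Cd22 was the 1 gene without overlap between the groups, against a background of 17.7% of all genes without overlap and higher in WT CAC mice. Without naive WT mouse 1 the same fit called 6 of the 8 genes, all higher in WT CAC mice: Ms4a1, Cd79a, Cd79b, Cd22, Cr2 and Fcer2a, with log2 fold changes from 2.73 for Cd79b to 3.54 for Cd79a. That fit called 2.44% of 15915 genes higher. Naive WT mouse 1 was set apart in part by the levels of these same genes, so these calls are not independent of the choice of that mouse. Pax5 had 3.53 ± 0.82 there (adjusted p = 0.0606 by edgeR) and Bcl6 0.09 ± 0.36. Leaving out naive WT mouse 2 instead lowered the 7 lineage genes, to between 0.65 for Cr2 and 1.56 for Cd22. In either fit the 2 remaining naive mice share 1 estimate of the spread with the WT CAC mice.

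**Figure D2:**
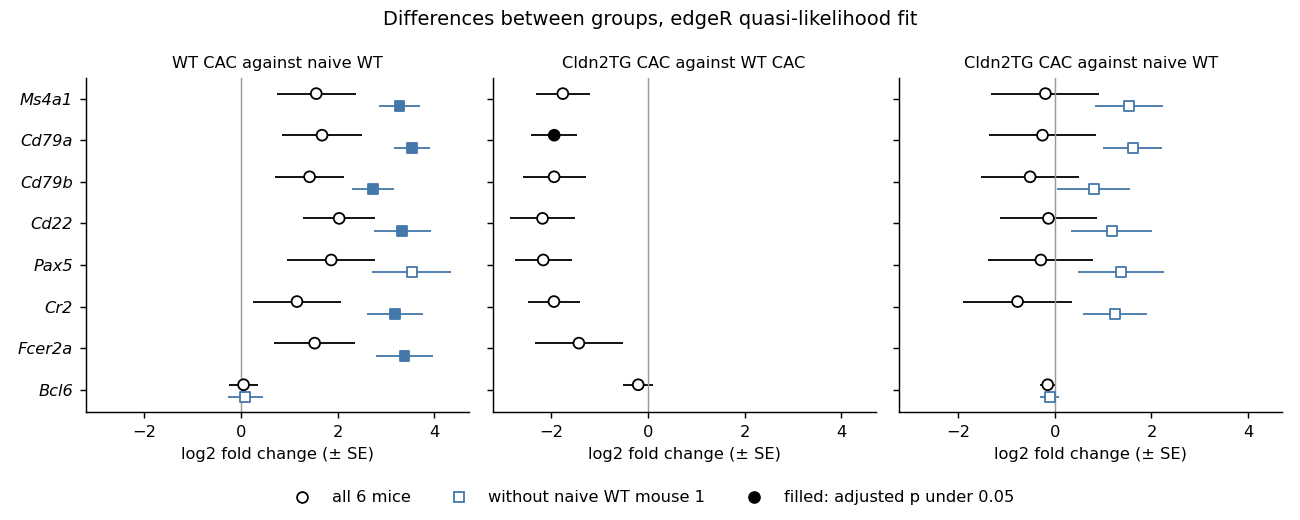
Log2 fold change with its SE for each gene in the 3 comparisons, from all 6 mice (circles) and without naive WT mouse 1 (squares), filled where adjusted p was under 0.05. Leaving that mouse out moves Cd79a from 1.68 to 3.54 in WT CAC against naive WT and from -0.26 to 1.61 in Cldn2TG CAC against naive WT.

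Cldn2TG CAC and WT CAC mice were compared for the effect of the claudin-2 transgene under AOM-DSS. All 8 log2 fold changes were below 0, with a median of -1.94 beside 0.01 over all genes tested. Of the 8 genes, 1, Cd79a, was called lower by edgeR, where 7.35% of 14888 genes tested were called lower. Of the 8 genes, 6, all but Fcer2a and Bcl6, had no overlap between the groups, where 14.3% of all genes had none and were lower in Cldn2TG CAC mice. The same 6 had an unadjusted p under 0.05, as did 23.5% of all genes in either direction, and were called by DESeq2, which called 9.97% of all genes lower. Without a filter on low counts edgeR called 3 of the 8 lower, beside 4.79% of all genes. The fit over all 9 mice called none of the 8, with 4 at an unadjusted p under 0.05, beside 26.7% of all genes in either direction.

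Cldn2TG CAC and naive WT mice were compared last, and this comparison shares mice with both others. Fcer2a had too few counts to be tested here, at 0.276, 2.48 and 0.0739 CPM against 2.34, 0.201 and 0.304 CPM. None of the 7 genes tested was called by edgeR or DESeq2 and none had an unadjusted p under 0.05, where edgeR called 10.0% of 15013 genes in either direction and 26.0% had an unadjusted p under 0.05. The log2 fold changes ran from -0.77 ± 1.14 for Cr2 to -0.13 ± 1.01 for Cd22, with SEs of 1.01 to 1.14 in the 6 lineage genes tested and 0.16 in Bcl6. Without naive WT mouse 1 the 6 lineage genes turned to between 0.81 and 1.61, with none called. Without Cldn2TG CAC mouse 9, Ms4a1, Cd79a, Cd22 and Pax5 turned to 0.23, 0.15, 0.32 and 0.15, and without Cldn2TG CAC mouse 7 Cd22 turned to 0.04, so the direction of this difference depended on which mice were kept.

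The 7 lineage genes rose and fell together from mouse to mouse, and Bcl6 did not follow them. Over the 9 mice, the 21 pairs among the 7 genes had Pearson r of log2 CPM from 0.880 to 0.995, with a median of 0.963. The 7 pairs with Bcl6 had r from -0.19 to -0.04. These are descriptions over 9 mice that share groups and libraries. Leaving out the 8 genes themselves, of which Cd79a had r of 0.995 and Cr2 0.985 with Ms4a1, 13908 genes with a mean of at least 1 CPM were ranked. Those most like Ms4a1 over the same mice were Ighd, the constant region of IgD, with r of 0.985, Ighg2b with 0.973, Tnfrsf13c, the BAFF receptor of B cells, with 0.971, Fcrl1 with 0.971, Ltb with 0.966, Bank1 with 0.965, H2-DMb2 with 0.961, Atxn7l2 with 0.958, Cxcl13 with 0.956 and Map4k1 with 0.953. Cxcr5 had 0.940. The 7 genes of all leukocytes had r with Ms4a1 from 0.636 to 0.909, with Ptprc, the gene of the leukocyte protein CD45, at 0.811. The 10 T cell genes had r from 0.0973 for Cd3e to 0.715 for Cd2, with a median of 0.528. Jchain of antibody-secreting cells had 0.551 and Igha, the constant region of IgA, 0.473.

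The mice did not keep one order for B cell, T cell and antibody genes. The summed level of the 7 lineage genes was 33.7, 3.26 and 5.82 CPM in naive WT, 52.8, 27.5 and 45.8 CPM in WT CAC and 9.78, 20.6 and 2.66 CPM in Cldn2TG CAC mice. The summed level of 10 T cell genes was 7.07, 6.58 and 13.2 CPM in naive WT, 24.1, 40.9 and 33.5 CPM in WT CAC and 9.51, 8.67 and 13.0 CPM in Cldn2TG CAC mice. Naive WT mouse 1, with B cell genes at the level of WT CAC mice, thus had T cell genes at the level of the other naive mice. In the WT CAC group, mouse 5 had the lowest B cell sum and the highest T cell sum, and mouse 4 the reverse.

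**Figure D3:**
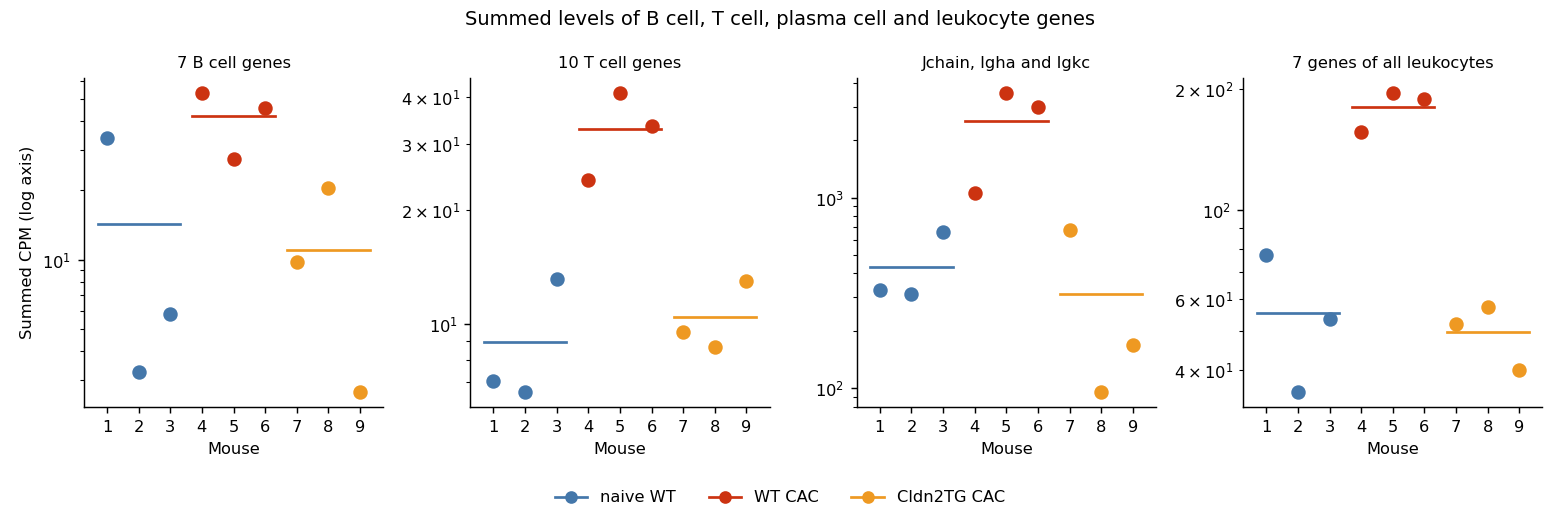
Summed CPM on log axes in each of the 9 mice for the 7 B cell genes (all but Bcl6), 10 T cell genes, Jchain with Igha and Igkc, and 7 genes of all leukocytes, with lines for group means. WT CAC mice are highest as a group in each panel, while naive WT mouse 1 reaches the WT CAC range for the B cell genes and is, at 77.3 CPM, the highest naive mouse for the leukocyte genes.

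Antibody genes of secreting cells had another order of mice. Jchain, Igha and Igkc together reached 326, 311 and 663 CPM in naive WT, 1062, 3523 and 2993 CPM in WT CAC and 677, 95.1 and 169 CPM in Cldn2TG CAC mice. Cldn2TG CAC mouse 8, with the highest B cell sum of its group, had the lowest sum of these antibody genes of all 9 mice. Ighd, carried by naive B cells, followed the B cell genes instead: it stood at 8.56, 0.603 and 0.955 CPM in naive WT, 10.1, 5.17 and 8.97 CPM in WT CAC and 1.52, 4.16 and 0.295 CPM in Cldn2TG CAC mice. Ighm, the constant region of IgM, stood at 27.3, 3.87 and 5.52 CPM in naive WT, 44.9, 20.9 and 24.0 CPM in WT CAC and 6.96, 13.6 and 16.5 CPM in Cldn2TG CAC mice, so that mouse 9, lowest for Ighd, was the highest of its group for Ighm. Of the 4 immunoglobulin constant genes, Igha and Igkc rose in WT CAC against naive WT mice, where edgeR called 8.04% of all genes higher. Both calls were lost without naive WT mouse 1, at 2.43 and 2.32 (adjusted p = 0.0885 and 0.076 by edgeR), while Ighm and Ighd were gained, at 2.70 and 3.38 (adjusted p = 0.0323 and 0.0239 by edgeR). None of the 4 was called in Cldn2TG CAC against WT CAC mice by edgeR, where DESeq2 called all 4. Over all genes, 2.44% were called higher in the fit without naive WT mouse 1. Between the AOM-DSS groups, edgeR called 7.35% of all genes lower and DESeq2 9.97%.

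Per unit of Ptprc, the 7 lineage genes still differed between mice. Cd79a had 0.645, 0.129 and 0.101 of the level of Ptprc in naive WT mice, 0.596, 0.284 and 0.502 in WT CAC mice and 0.336, 0.620 and 0.175 in Cldn2TG CAC mice. For Cd79a, Cldn2TG CAC mouse 8 and naive WT mouse 1 exceeded all 3 WT CAC mice. Mouse 8 did so for 5 of the 7 genes and naive WT mouse 1 for 3 of the 7, while for Cd22 and Pax5 WT CAC mouse 4 was the highest of all mice. The AOM-DSS groups overlapped on this ratio for all 7 genes. Ptprc itself rose by 1.31 ± 0.30 in WT CAC against naive WT mice (adjusted p = 0.0297 by edgeR; 1.55 and 0.0529 without naive WT mouse 1) and fell by 1.81 on the log2 scale in Cldn2TG CAC against WT CAC mice (SE 0.24, adjusted p = 0.00777 by edgeR). The level of the B cell genes and that of leukocyte genes as a whole thus moved in the same direction between the AOM-DSS groups, and the part of all leukocytes in the B cell differences was not tested.

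Among 18 other genes of the B cell receptor and B cell surface, 5 rose in WT CAC against naive WT mice and 8 fell in Cldn2TG CAC against WT CAC mice, where 8.04% and 7.35% of all genes did, with medians of 1.56 and -1.96 beside 0.02 and 0.01 over all genes tested. The most abundant of the list are also used outside B cells: Cd81, a tetraspanin, had 0.26 ± 0.11 and 0.00 ± 0.15 and passed neither test, and Syk, a kinase of many leukocytes and of epithelium, fell by 0.68 (SE 0.14, adjusted p = 0.019 by edgeR) in Cldn2TG CAC against WT CAC mice. Blnk, the adaptor downstream of the receptor, rose by 0.49 ± 0.11 in WT CAC mice (adjusted p = 0.0255 by edgeR). Blnk had 0.46 without naive WT mouse 1 (adjusted p = 0.095 by edgeR). In that fit, 11 of the 18 genes were called higher in WT CAC mice, beside the 2.44% of all genes.

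Of 9 transcription factors of B cells, 3 rose in WT CAC against naive WT mice and 5 fell in Cldn2TG CAC against WT CAC mice, where 8.04% and 7.35% of all genes did. Over the mice left out in turn, 0 to 4 and 1 to 5 did. Ets1, a factor of lymphocytes in general, rose by 1.16 ± 0.24 (adjusted p = 0.0224 by edgeR) and then fell by 1.84 (SE 0.22, adjusted p = 0.00625 by edgeR). Spib, which is also made by M cells of the follicle epithelium, had 0.83 ± 0.24 and -1.02 ± 0.27 and passed neither test. Irf8, the most abundant of the list, had 0.16 ± 0.13 and 0.05 ± 0.14. Of the receptors for survival signals and homing, 4 of 9 tested rose in WT CAC mice and 6 of 8 tested fell in Cldn2TG CAC against WT CAC mice, and 0 to 5 and 0 to 7 did over the mice left out in turn. Ltb, lymphotoxin beta, which helps to build lymphoid follicles, rose by 2.26 ± 0.61 (adjusted p = 0.0476 by edgeR) and fell by 2.24 (SE 0.46, adjusted p = 0.0216 by edgeR). The rises of Ets1 and Ltb were each lost in some fit without 1 mouse, with log2 fold changes of 0.999 to 1.40 and 1.85 to 3.43 and adjusted p up to 0.0884 and 0.142 by edgeR. Cxcr5 stood at 3.58, 0.301 and 0.434 CPM in naive WT, 3.35, 1.55 and 2.41 CPM in WT CAC and 0.896, 1.11 and 0.517 CPM in Cldn2TG CAC mice, with naive WT mouse 1 the highest of all 9.

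The genes listed for germinal centre B cells had smaller median log2 fold changes than the 8 genes, a difference that was not tested. The medians were 0.24 beside 1.54 in WT CAC against naive WT and -0.30 beside -1.94 in Cldn2TG CAC against WT CAC. By calls the first comparison ran the other way, with 1 germinal centre gene higher, 1 lower and none of the 8 genes called. Over all 15437 genes tested there, 1241 were called higher and 1069 lower. Between the groups of WT mice, 6 of 7 such genes had enough counts for the fit, with a median of 0.24: S1pr2, a receptor that holds B cells in the follicle, rose by 0.77 ± 0.22 (adjusted p = 0.0487 by edgeR) and Rgs13, also present in tuft cells, fell by 1.12 (SE 0.29, adjusted p = 0.0402 by edgeR). Both calls were lost without naive WT mouse 1, where S1pr2 had 0.79 (adjusted p = 0.123 by edgeR) and Rgs13 -1.23 (adjusted p = 0.079 by edgeR). Fas, which many cells express, had 0.20 ± 0.16. In Cldn2TG CAC against WT CAC mice none of the 4 genes tested was called by edgeR and 1 was called by DESeq2. Of the 4, 3 had log2 fold changes below 0, and S1pr2, without overlap between the groups, had -0.92 ± 0.25 (adjusted p = 0.0552 by edgeR). Mef2b was at 0 in 8 of the 9 mice.

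**Figure D4:**
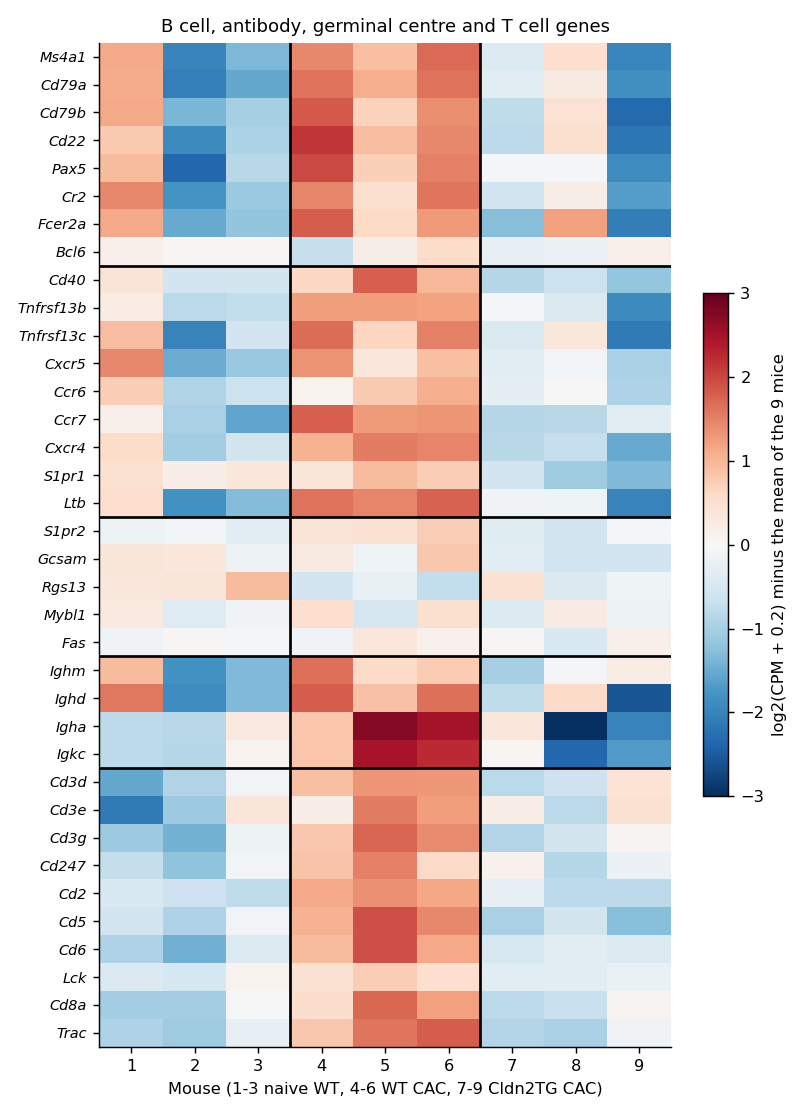
Level of each gene in each mouse as log2(CPM + 0.2) minus the mean of the 9 mice, for the 8 genes, survival and homing receptors, germinal centre genes, immunoglobulin constant genes and T cell genes. The 7 genes other than Bcl6 are high in naive WT mouse 1 and in WT CAC mice 4 to 6, Bcl6 and the germinal centre genes vary less, and Igha, Igkc and most T cell genes are highest in mice 5 and 6.

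Genes of helper cells and stroma of the follicle differed between groups partly in the same direction as the B cell genes. From mouse to mouse the helper genes had another order. Their sum was 1.39 CPM in naive WT mouse 1, beside 0.904 and 1.43 CPM in the other naive mice. It was highest, at 10.3 CPM, in WT CAC mouse 5, and Cd4 had r of 0.495 with Ms4a1. Of 5 genes of T follicular helper cells, 3 could be tested between the groups of WT mice, and Cd4, Icos and Pdcd1 all rose, by 2.24 ± 0.45, 3.58 ± 0.69 and 2.54 ± 0.48 on the log2 scale. Without naive WT mouse 1 they had 2.15, 4.39 and 2.68, and Icos alone was called; over the mice left out in turn, 0 to 3 were called. The same 3 fell in Cldn2TG CAC against WT CAC mice, and 0 to 3 of them did over the mice left out in turn, while Il21 was at 0 in 8 of the 9 mice. These genes are carried by other T cells too, and 9 of 10 T cell genes rose and 8 of 10 fell in the same comparisons, where 8.04% of all genes rose and 7.35% fell. Cxcl13 stood at 7.37, 1.15 and 1.74 CPM in naive WT, 7.31, 7.30 and 9.91 CPM in WT CAC and 2.14, 3.29 and 1.77 CPM in Cldn2TG CAC mice. It had 1.28 ± 0.64 in WT CAC against naive WT mice (adjusted p = 0.214 by edgeR) and fell by 1.77 in Cldn2TG CAC against WT CAC mice (SE 0.30, adjusted p = 0.0118 by edgeR). Of the 7 stromal genes tested, 2 rose and 2 fell in these comparisons, with Mfge8 in both, and 0 to 3 did in each over the mice left out in turn.

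Among 8 plasma cell genes, 3 of 7 tested rose in WT CAC against naive WT mice and 4 of 7 fell in Cldn2TG CAC against WT CAC mice. Over all genes, 8.04% and 7.35% did, and over the mice left out in turn 1 to 6 of the plasma cell genes rose and 0 to 4 fell. Jchain, which joins IgA molecules, rose by 2.61 ± 0.44 (adjusted p = 0.0163 by edgeR) and fell by 2.72 (SE 0.61, adjusted p = 0.0412 by edgeR), whereas Sdc1 and Xbp1, both also abundant in epithelium, had 0.19 ± 0.18 and 0.15 ± 0.13 in WT CAC against naive WT mice and passed neither test. The 7 genes of all leukocytes rose in 7 of 7 and fell in 6 of 7. In Cldn2TG CAC against naive WT mice, of 60 genes tested in the B cell, germinal centre, helper, stromal, plasma cell, immunoglobulin and T cell lists, 3 were called, all lower, where 10.0% of all genes were called in either direction. They were Syk at -0.89 ± 0.11, S1pr1 at -1.38 ± 0.27 and Enpp2 at -0.998 ± 0.253, and when each mouse was left out in turn the adjusted p of edgeR reached 0.0145, 0.0555 and 0.0965.

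The calls in these lists depended on single mice as well, as did the calls over all genes. Genes higher in WT CAC against naive WT mice numbered 1241 with all mice and 75 to 2241 when each mouse was left out. Genes lower in Cldn2TG CAC against WT CAC mice numbered 1095 with all mice and 48 to 1975 when each was left out. Whether the lists moved more than all genes was not tested. Over the fits that each left out 1 mouse, between 0 and 11 of the 18 receptor and surface genes rose in WT CAC against naive WT mice and between 0 and 10 fell in Cldn2TG CAC against WT CAC mice. For the 10 T cell genes the ranges were 0 to 9 and 0 to 10, and 1 of the 10 was called once naive WT mouse 1 was left out, with a median log2 fold change of 2.12 beside 2.18 with all mice. In that same fit, 1 of 8 plasma cell genes and 2 of 5 genes of follicle epithelium were called higher. So were 5 of 7 genes of all leukocytes, 4 of 9 transcription factors and 5 of 9 survival and homing receptors. The count was 3 of 7 for stromal genes and 1 of 6 for macrophage and monocyte genes. Over all genes, that fit called 2.44% higher. Jchain had 2.44 there (adjusted p = 0.0605 by edgeR). Over the 6 fits of that comparison that each left out 1 mouse, the counts ran from 1 to 7 for leukocyte genes and from 0 to 3 for stromal and follicle epithelium genes. In Cldn2TG CAC against WT CAC mice, Syk, Ltb, Cxcl13, Jchain and Ptprc each lost the call when some mouse was left out, with log2 fold changes still from -0.77 to -0.60, -2.52 to -1.82, -2.07 to -1.59, -3.53 to -2.34 and -1.99 to -1.61. Smooth muscle genes summed to 3107, 1484 and 2259 CPM in naive WT, 2116, 760 and 949 CPM in WT CAC and 875, 1077 and 704 CPM in Cldn2TG CAC mice. Mice 1, 3 and 4 thus held the most muscle RNA, of which mice 1 and 4 also had high B cell genes and mouse 3 low ones. Genes of the epithelium over lymphoid follicles, such as Ccl20 and Ccl9, summed to 34.8, 22.5 and 29.6 CPM in naive WT, 74.1, 72.8 and 70.4 CPM in WT CAC and 22.6, 26.3 and 19.9 CPM in Cldn2TG CAC mice, and 3 of these 5 genes rose and 3 fell in the same comparisons. Of 6 macrophage and monocyte genes, 3 rose and 3 fell in these comparisons, with medians of 1.41 and -1.89, and 0 to 6 did in each over the mice left out in turn. Over all genes, 8.04% rose in WT CAC against naive WT mice and 7.35% fell in Cldn2TG CAC against WT CAC mice. Adipose genes summed to 6.68, 55.7 and 7.68 CPM in Cldn2TG CAC mice, with mouse 8, the highest of its group for the B cell genes other than Bcl6, apart from the other mice of the group, and naive WT mouse 2, with low B cell genes, had 73.7 CPM. The part of muscle, of adipose tissue, of follicle epithelium, of macrophages, of T cells and of the sex of naive WT mouse 1 in the B cell levels was not tested.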

How the data were processed

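RNA-Seq counts of mouse colon were analysed. The authors deposited whole-number counts of reads per gene, without normalization, for 18 columns, 2 lanes of each of 9 mice. The submitters' processing notes name HISAT2, featureCounts of Subread and GRCm38, and the study's methods name TopHat2; versions and strand setting were not given in the sources used here. Lanes of a mouse were added up (chi-square per degree of freedom 0.995 to 1.06 between lanes, 16.8 to 66.3 between mice of a group). Gene symbols were found for 47224 of 47729 identifiers.

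Each comparison was fitted on its 6 mice with edgeR 4.0.16 in R 4.3.3: TMM normalization, filterByExpr (minimum count 10, minimum total 15), robust quasi-likelihood fit, two-sided test, Benjamini-Hochberg over all genes tested. The biological coefficient of variation was 0.218, 0.217 and 0.149 for WT CAC against naive WT, Cldn2TG CAC against WT CAC and Cldn2TG CAC against naive WT. On simulated counts for WT CAC against naive WT (15238 genes), 200 of 200 genes changed by a fold of 4 were recovered, with 11 false calls. In the measured counts of that comparison, Cd22 had a ratio of mean CPM of 4.02 and was not called (adjusted p = 0.106 by edgeR). The simulation therefore does not show that a change of this size would be found in the B cell genes described here. Alternatives were DESeq2 1.42.0, other scalings and filters, all 9 mice, each lane and each mouse left out.

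The genes and lists were chosen with earlier results of these data known. The text names all 8 genes, the 3 most abundant genes of a list, a few fixed genes (Cxcr5, S1pr2, Cxcl13, Ighm, Ighd, Jchain, Cd3e, Ptprc and Cldn2) and the 10 genes most like Ms4a1; Mef2b, Il21, Cd2, Enpp2 and Xist were named after their values were seen. Some genes that fall under this rule are not reported here.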

Additional observations from a re-analysis of the deposited data

How the results depend on the processing

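Scaling by library size or by RLE called as many of the 8 genes as TMM in each comparison. The stricter filter left 4, 2 and 2 of the 8 genes to test, and single lanes left 5 and 6 in Cldn2TG CAC against naive WT, so they say little of the others. In WT CAC against naive WT mice, 0 of the 8 genes were called, DESeq2 called 1, and leaving out each mouse in turn gave 0 to 6, with 6 only without naive WT mouse 1. In Cldn2TG CAC against WT CAC mice, 1 was called, DESeq2 called 6, no filter on low counts 3, the fit of all 9 mice 0, and leaving out each mouse in turn 0 to 1. Over single genes, 7 calls were gained in the first of these comparisons, and 7 gained and 6 lost in the second, over all settings. Counts in the other gene lists were recomputed in the same settings, a choice made after seeing the data. The cause of these moves was not tested. No paired analysis was possible because the mouse numbers differ between groups.

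The sign of the log2 fold change turned in some settings, with no gene called there. For Bcl6 it was -0.07 in lane 2 alone and -0.25 to 0.33 over the mice left out in WT CAC against naive WT, and -0.47 to 0.12 in Cldn2TG CAC against WT CAC. In Cldn2TG CAC against naive WT, the ranges over the mice left out were -0.96 to 1.53 for Ms4a1, -0.81 to 1.61 for Cd79a, -1.49 to 0.81 for Cd79b, -1.26 to 1.18 for Cd22, -0.84 to 1.37 for Pax5 and -1.49 to 1.25 for Cr2, and lane 2 alone gave 0.30 for Cd22 and 0.27 for Pax5.

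Scaling by library size only moved the median of all genes by -0.11 in Cldn2TG CAC against naive WT, where 276 genes were higher and 1310 lower beside 589 and 912 with TMM. Pax5, Cd22, Cr2 and Fcer2a had 1 to 6 counts in mice 2 and 9, so their levels there are imprecise.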
